A study of Mus musculus with 16 samples.

Results

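Muscle from 2 mice immunized with an MBP fusion of the autoantigen (HRS-MBP, m860 and m861) was compared with the HRS-injected legs of 5 mice (m862 to m866) by bulk RNA sequencing, and these 7 libraries from 7 mice were taken from a series of 16 libraries from 9 mice. The members were chosen by the sample titles, which name the fusion protein for m860 and m861 and an injection of the left leg, abbreviated ma, for m862 to m866, and the treatment label gives HRS for those left legs. All mice were female C57BL/6, aged 8 to 10 weeks when injected, and muscle was collected on day 14. The titles of m860 and m861 give 2 to 3 mg/mL and the treatment label of m862 to m866 gives HRS at 3 to 5 mg/mL, and the protocol describes 100 μL in all with 50 μL a side. The treatment label of m860 and m861, however, reads HRS at the higher concentration, and their titles name no leg. What MBP and ma stand for, and which part of the protein was fused, is not spelled out in the labels. Protein, concentration and the mice themselves differ between the groups together and cannot be told apart. The other 9 libraries, 5 contralateral PBS legs of m862 to m866 and 4 legs of the PBS-only mice m867 and m868, serve here as background levels. The protocol describes injection of both hamstrings, whereas the titles and treatment labels place HRS in the left and PBS in the right leg of m862 to m866, and these were followed.

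Histidyl-tRNA synthetase, the Jo-1 antigen, is a cytoplasmic enzyme that charges tRNA with histidine, and recombinant HRS injected into mouse muscle brings T cells, macrophages and B cells into the tissue. B cells that leave the naive state may become plasma cells, which assemble antibodies from a heavy and a light chain. Each chain has 1 variable (V) segment joined to a constant gene, so that V segment RNA shows which segments the antibody-making cells use and constant gene RNA shows the isotype. Muscle also runs a circadian clock, in which the activators ARNTL (BMAL1), CLOCK and NPAS2 switch on the period genes and *Dbp* through E-boxes, and the period proteins feed back on the activators over the day.

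Values are normalized counts as deposited, which are scaled per library and are not corrected for gene length. The value of 1 read implied depths of about 39600000 reads in m860, 37300000 in m861 and 37300000 to 73900000 in the 5 HRS legs. A pair of HRS legs stood apart. *Ptprc*, which encodes the leukocyte antigen CD45, reached 279 normalized counts in the leg of m864 and 58 in that of m866, against 108, 111 and 115 in the other 3 legs and 3.56 to 9.47 in the PBS legs. It was 202 in m860 and 240 in m861, between the leg of m864 and the rest, and the groups overlapped. The muscle creatine kinase gene *Ckm* ran the other way, with 5050 in m864 and 24180 in m866, 8738 to 12733 in the other 3 HRS legs, and 8278 and 7111 in m860 and m861. *Acta1*, the skeletal muscle actin gene, was at 10672 or more in all 7 libraries, as the muscle label implies. The first principal component over 16 libraries carried 77.3% of the variance and placed m860 at 104 and m861 at 100, between m864 at 123 and the other HRS legs at -2.84 to 82.4. Across genes, the log2 values of m860 and of m861 correlated most closely, among HRS legs, with those of m864 (r = 0.982 and 0.955). Between m860 and m861 r was 0.977, so that m860 was closer to m864 than to m861. The second component (5.98% of the variance) placed m860 at 13.6 and m861 at 57.4, against -34.1 to 27.6 in the HRS legs. In bulk tissue, fewer cells of a type and less RNA per cell cannot be told apart.

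**Figure D1:**
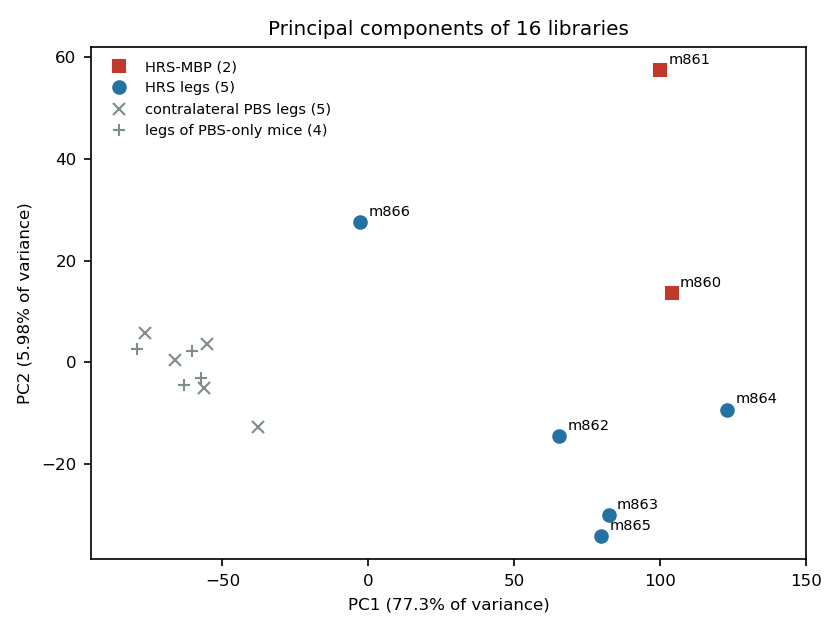
First and second principal components (PC1 and PC2, with their shares of the variance) of log2 normalized counts, 1 point per library. The HRS-MBP libraries lie at 104 and 100 on PC1, short of the HRS leg of m864 at 123, whereas the HRS leg of m866 lies at -2.84, nearest to the PBS legs. On PC2 the HRS-MBP libraries lie apart, at 13.6 and 57.4.

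Few single genes separated HRS-MBP from HRS muscle by the test over all genes. Of 16414 genes tested with limma, 4 were called higher in HRS-MBP (Benjamini-Hochberg adjusted p below 0.05 and a log2 difference above 1), which is 0.0244% of the genes, and 0 were called lower. The called genes were *Dbp*, a clock output gene, and the V segments *Ighv14-3*, *Igkv15-103* and *Ighv1-66*. These segments passed the filter on low values, a mean of 0.5 over the 16 libraries, only through HRS-MBP. With the filter set on the other 14 libraries, a choice made after seeing the data, limma called 0 of 16292 genes, while 722 were higher and 699 lower at an unadjusted p below 0.05. At an unadjusted p below 0.05, 807 genes were higher and 686 lower (9.10% in all), and limma-voom called 0 genes in either direction. Both HRS-MBP libraries lay above all 5 HRS legs for 1166 genes (7.10%) and below all 5 for 1379 genes (8.40%). These shares are the background against which counts of separated genes are read below. With 2 against 5 libraries, the exact permutation test has 21 arrangements, and its smallest two-sided p is 0.0952, so that it cannot reach 0.05 for any gene. When all 16 libraries shared 1 estimate of the spread, 65 genes were called higher and 11 lower (0.463%), and these included all 4, whereas 26 (0.160%) were called in that fit with the filter on the other 14 libraries. Without the HRS leg of m864, 20.1% of genes lay above and 18.0% below all remaining HRS legs. Without that of m866, 11.0% lay above and 15.0% below.

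Among clock genes was *Dbp*, the 1 called gene that is no V segment. *Dbp* encodes a PAR bZIP transcription factor that activates genes through D-boxes and peaks once a day, and the gene lies at chr7:45705088-45710203 (GRCm38). It was measured at 84.3 normalized counts in m860 and 76.2 in m861, and at 11.9, 18.4, 11.9, 16.9 and 16.5 in the HRS legs of m862 to m866. Both HRS-MBP values lay above every one of the 14 other libraries, since the PBS legs spanned 10.6 to 23.1. *Dbp* rose by 2.39 ± 0.21 (SE) on the log2 scale (limma, adjusted p = 0.0259), a ratio of means of 5.3. The call was kept under 13 of 22 alternatives, over all of which the log2 difference stayed between 2.28 and 2.6 and the adjusted p ran from 9.23e-06 to 0.281. It was lost with the smaller pseudocount, the stricter filter, the filter on the other 14 libraries (adjusted p = 0.102) and limma-voom, and on leaving out m860 (adjusted p = 0.0671), m861 (0.281), or the HRS leg of m862 (0.0978), m863 (0.0611) or m865 (0.113). Without m860 or m861, 1 HRS-MBP library remains and is assumed to vary like the HRS legs.

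The promoters of 5 clock genes are shown as examples, chosen after the values and motif matches were seen, from genes that lay above or, for *Arntl*, below all HRS legs in both HRS-MBP libraries, although only *Dbp* was called. Sequences are RefSeq entries on GRCm38.p6, from 250 bases before to 50 bases after the start of transcription, 5′ to 3′ on the strand of the gene, and 17 of the 21 clock genes listed had an entry. The motifs below were searched on both strands and are in capitals where found. They were the E-box CACGTG, the D-box TTATGTAA and the core of the ROR element TNGGTCA, which is read by the REV-ERB and ROR receptors. They do not overlap each other in the printed windows. Among 32851 promoters of the same length, 7.15%, 0.938% and 11.0% held them. The entries are *Dbp* at chr7:45704997-45705296 (plus strand), *Per1* at chr11:69098699-69098998 (plus strand), *Ciart* at chr3:95882179-95882478 (minus strand), *Per3* at chr4:151044616-151044915 (minus strand) and *Arntl* at chr7:113207261-113207560 (plus strand), the last being the second of 2 entries for that gene.
Dbp: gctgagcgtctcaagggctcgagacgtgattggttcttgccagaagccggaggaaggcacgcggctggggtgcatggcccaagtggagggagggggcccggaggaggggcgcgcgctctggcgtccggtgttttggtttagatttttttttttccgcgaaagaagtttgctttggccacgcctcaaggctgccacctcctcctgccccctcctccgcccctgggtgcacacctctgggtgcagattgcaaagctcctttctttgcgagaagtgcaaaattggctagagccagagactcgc
Per1: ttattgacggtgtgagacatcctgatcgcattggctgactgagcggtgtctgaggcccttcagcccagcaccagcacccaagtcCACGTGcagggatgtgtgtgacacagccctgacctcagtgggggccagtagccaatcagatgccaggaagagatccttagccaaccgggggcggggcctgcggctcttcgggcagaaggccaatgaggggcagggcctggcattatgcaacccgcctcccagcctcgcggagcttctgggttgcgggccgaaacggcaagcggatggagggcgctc
Ciart: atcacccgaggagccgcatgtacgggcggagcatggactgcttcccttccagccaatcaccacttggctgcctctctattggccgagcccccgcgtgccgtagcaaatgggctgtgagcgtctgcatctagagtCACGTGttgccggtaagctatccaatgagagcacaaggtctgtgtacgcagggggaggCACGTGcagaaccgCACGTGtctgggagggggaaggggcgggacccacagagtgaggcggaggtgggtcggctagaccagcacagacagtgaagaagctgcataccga
Per3: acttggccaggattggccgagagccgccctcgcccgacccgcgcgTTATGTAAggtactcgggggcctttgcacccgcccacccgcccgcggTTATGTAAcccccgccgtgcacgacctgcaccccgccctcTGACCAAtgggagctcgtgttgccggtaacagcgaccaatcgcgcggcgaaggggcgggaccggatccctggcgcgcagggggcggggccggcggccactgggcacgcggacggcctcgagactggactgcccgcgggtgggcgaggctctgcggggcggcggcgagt
Arntl: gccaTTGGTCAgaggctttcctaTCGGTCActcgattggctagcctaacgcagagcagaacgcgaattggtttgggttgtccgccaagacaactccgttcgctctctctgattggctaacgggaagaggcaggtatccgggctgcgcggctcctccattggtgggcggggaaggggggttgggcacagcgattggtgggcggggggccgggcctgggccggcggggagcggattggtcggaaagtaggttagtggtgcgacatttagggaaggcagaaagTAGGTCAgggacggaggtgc
In these windows, *Per1* has 1 E-box and *Ciart* has 3, *Per3* has 2 D-boxes and 1 ROR core, and *Arntl* has 3 ROR cores. *Per1* too has 2 entries, of which the first is printed, and its other entry has none of the 3 motifs. The unprinted *Arntl* entry has 2 ROR cores. The *Dbp* window has none of the 3 motifs, which says only that these letters are not in it. Of the 17 genes with an entry, 5 had an E-box, 1 a D-box and 5 a ROR core in at least 1 entry. Of the lower genes not printed, *Cry1* has an E-box and *Nfil3* a ROR core, and *Npas2* and *Clock* have none of the 3 motifs. A match is a run of letters and not a measured binding site.

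The period genes, which encode the repressors of the clock, were all higher in HRS-MBP. *Per2* was at 26.7 and 32.3 in m860 and m861 against 7.11, 10.2, 8.06, 8.65 and 7.07 in the HRS legs, a log2 difference of 1.79 ± 0.183 (SE) that missed the threshold (limma, adjusted p = 0.0582). *Per3* was at 29.5 and 31.2 against 9.48, 13.8, 7.13, 10.9 and 11.9, a log2 difference of 1.5. *Per1* was at 57.5 and 78.3 against 15, 25.5, 19.3, 17.7 and 36, a log2 difference of 1.61. For none of the 3 did the groups overlap, and the highest PBS levels were 6.95 for *Per2*, 16 for *Per3* and 55.7 for *Per1*, all below both HRS-MBP libraries. *Wee1*, a mitotic kinase gene under clock control, was at 14.3 and 20.8 against 5.13 to 8.19. *Ciart*, a circadian repressor, was at 2.74 and 3.98 against 1.1 to 1.8.

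The activators lay on the other side. *Arntl* was at 6.74 in m860 and 5.83 in m861, and at 23.7, 19.3, 17.6, 24.2 and 39.8 in the HRS legs. With PBS legs at 32.8 to 49.4, both HRS-MBP values were the lowest of the 16 libraries. The log2 difference was -1.85 ± 0.301 (SE), not called (limma, adjusted p = 0.223). *Npas2*, which encodes a partner of ARNTL in place of CLOCK, was at 1.61 and 0.712 against 5.94, 7.55, 7.84, 8.69 and 4.95, a log2 difference of -2.20. *Clock* itself was at 23 and 20 against 30 to 35.3, a smaller difference of -0.62. *Cry1*, a repressor that peaks later than the period genes, was at 11.8 and 12.7 against 16.7 to 30, and *Nfil3*, which opposes DBP at D-boxes, at 21 and 23.4 against 26.5 to 67.5. In these 5 genes both HRS-MBP libraries lay below all HRS legs, by more than the gap between the HRS-MBP libraries.

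The clock did not separate the groups at every gene. *Nr1d1*, which encodes REV-ERBα, a repressor of *Arntl*, was at 53.7 and 52.6 against 29.2 to 59.6, within the range of the HRS legs. *Nr1d2* was at 73.9 and 66.9 against 27 to 67.9, with only m866 in between. *Tef*, a relative of *Dbp*, was at 193 and 160 against 94.9 to 259, and *Cry2*, *Bhlhe40*, *Bhlhe41* and *Rora* also overlapped. Of 21 clock genes, 6 were above and 5 below all HRS legs, beside 7.10% and 8.40% of all genes. That list was written after these values had been seen, and its counts are a description. In the fit of all 16 libraries, 7 of the 21 were called, beside 0.463% of all genes. They were *Dbp*, *Per2*, *Per3*, *Ciart*, *Wee1*, *Arntl* and *Npas2*. With the filter on the other 14 libraries, 6 of these, all but *Ciart*, were called, beside 0.160% of all genes. These counts are a description too. The labels give the day of collection and not the hour, so that the part of the collection time in these differences was not tested.

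**Figure D2:**
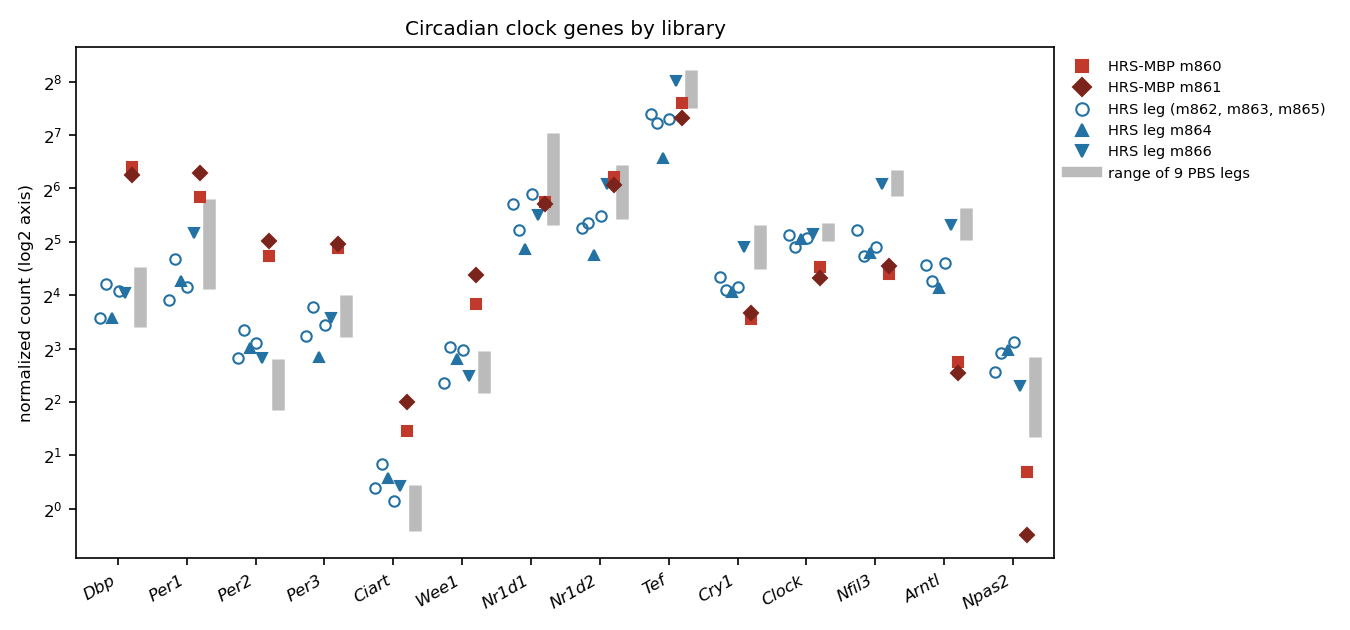
Normalized counts (log2 axis) of 14 clock genes, 1 symbol per library, with grey bars for the range of the 9 PBS legs. *Dbp* in m860 and m861 (84.3 and 76.2) stands above all other libraries, *Arntl* (6.74 and 5.83) and *Npas2* (1.61 and 0.712) stand below them, and *Nr1d1* and *Tef* overlap with the HRS legs.

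Antibody genes were far higher in m861 than in m860. *Igkc*, the kappa light chain constant gene, was at 531 in m860 and 3434 in m861, against 328, 69.1, 119, 132 and 165 in the HRS legs and 0.897 to 17 in the PBS legs. *Ighm*, the constant gene of IgM, was at 422 and 3374 against 181, 129, 99, 229 and 354. Both HRS-MBP libraries thus lay above all HRS legs for these genes, m860 by a small margin for *Ighm* and m861 by a wide one. Of 12 constant and joining chain genes tested, 0 were called. Above all HRS legs were 6 and below them 0, beside 7.10% and 8.40% of all genes. The median log2 difference was 2.83 where the median of all genes was -0.033. Against the mean of the HRS legs, the median over the list was 1.40 in m860 and 4.44 in m861.

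Isotypes differed in how firmly they separated. *Ighg2b* (IgG2b) was at 253 and 1259 against 22.3, 14.1, 92, 67.3 and 69.4, a log2 difference of 3.72 ± 0.884 (SE; limma, adjusted p = 0.443). *Igha* (IgA) was at 21.4 and 64.2 against 0.28 to 15, and *Iglc1*, a lambda light chain constant gene, at 11.5 and 49.5 against 1.19 to 3.33. For all 3 genes both HRS-MBP libraries lay above all HRS legs. *Ighg2c*, the IgG2c gene carried by C57BL/6 mice, was at 381 and 3477 against 500, 12.5, 106, 28.1 and 16.7, so that the leg of m862 exceeded m860. *Ighg3* was at 17.7 and 681 against 4.23 to 69.7 and *Ighg1* at 37.2 and 114 against 4.17 to 56.5, both with overlap. As a share of summed heavy chain constant values, *Ighm* made up 37.1% in m860 and 37.6% in m861, and 22.9% to 69.6% in the HRS legs. *Ighg2c* made up 33.6% and 38.7%, against 3.26% to 63.2%. Both shares were close to each other in m860 and m861, where the summed level was 1135 and 8975. The other isotypes took unlike shares in m860 and m861, with *Ighg3* at 1.56% and 7.59%, *Ighg2b* at 22.3% and 14%, *Ighg1* at 3.27% and 1.27% and *Igha* at 1.89% and 0.715%. *Ighd* took 0.273% and 0.055%, the latter below every HRS leg. Lambda constant genes were 3.19% and 3.12% of light chain constant values in m860 and m861 and 1.18% to 6.07% in the HRS legs.

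Some plasma cell genes followed the antibody genes, again with m861 above m860, whereas others overlapped with the HRS legs. *Jchain*, which encodes the chain that joins IgM and IgA, was at 75.9 and 600 against 42.2, 14.5, 20.1, 28.7 and 43.1. *Derl3*, a factor of protein disposal in the endoplasmic reticulum, was at 2.26 and 17.3 against 1.4, 0.453, 0.607, 0.587 and 0.841. *Pou2af1*, a coactivator of antibody genes, was at 5.66 and 34.6 against 0.918 to 3.92, and *Mzb1*, a chaperone of antibody assembly, at 5.46 and 54.2 against 1.68 to 4.67. Of 15 plasma cell genes tested, 0 were called and 5 were above all HRS legs (*Derl3*, *Pou2af1*, *Mzb1*, *Irf4* and *Slamf7*), beside 7.10% of all genes. *Derl3* passed the filter on low values only through HRS-MBP. With the filter on the other 14 libraries 4 of 14 were above, beside 6.69% of all genes. The median log2 difference of the 15 genes was 0.94, with 0.45 in m860 and 1.49 in m861. *Sdc1*, the gene of the plasma cell surface marker CD138 that muscle and stromal cells express too, was at 33.6 and 29.3 within an HRS range of 8.41 to 52.7. *Prdm1*, the gene of the plasma cell and resident T cell regulator Blimp-1, was at 6.97 and 11 against 2.46 to 9.75.

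B cell genes had a median log2 difference of 1.32 over 12 genes tested, with 0.95 in m860 and 1.77 in m861. *Cd79a*, part of the B cell receptor, was at 3.87 and 15.9 against 1.81, 0.659, 5, 1.17 and 0.81. *Ms4a1* (CD20) was at 2.67 and 5.65 against 0.529 to 5.61, with the leg of m864 the highest HRS leg for both genes. *Tnfrsf13c*, the gene of the BAFF receptor, was at 1.34 and 4.67 against 0.187 to 1.14, but passed the filter on low values only through HRS-MBP. Of the 12 genes, 0 were called and 1 was above all HRS legs (background 7.10%). Above all HRS legs but that of m864 were 10 (background 20.1%). With the filter on the other 14 libraries, 0 of 9 were above all HRS legs. The ratio of *Igkc* to *Ptprc* was 2.63 in m860 and 14.3 in m861, and 0.425 to 3.02 in the HRS legs, so that per unit of leukocyte RNA only m861 stood above all HRS legs. Relative to *Cd79a*, *Igkc* was at 137 in m860 and 216 in m861, and at 23.7 to 204 in the HRS legs, so that m861 exceeded them narrowly.

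**Figure D3:**
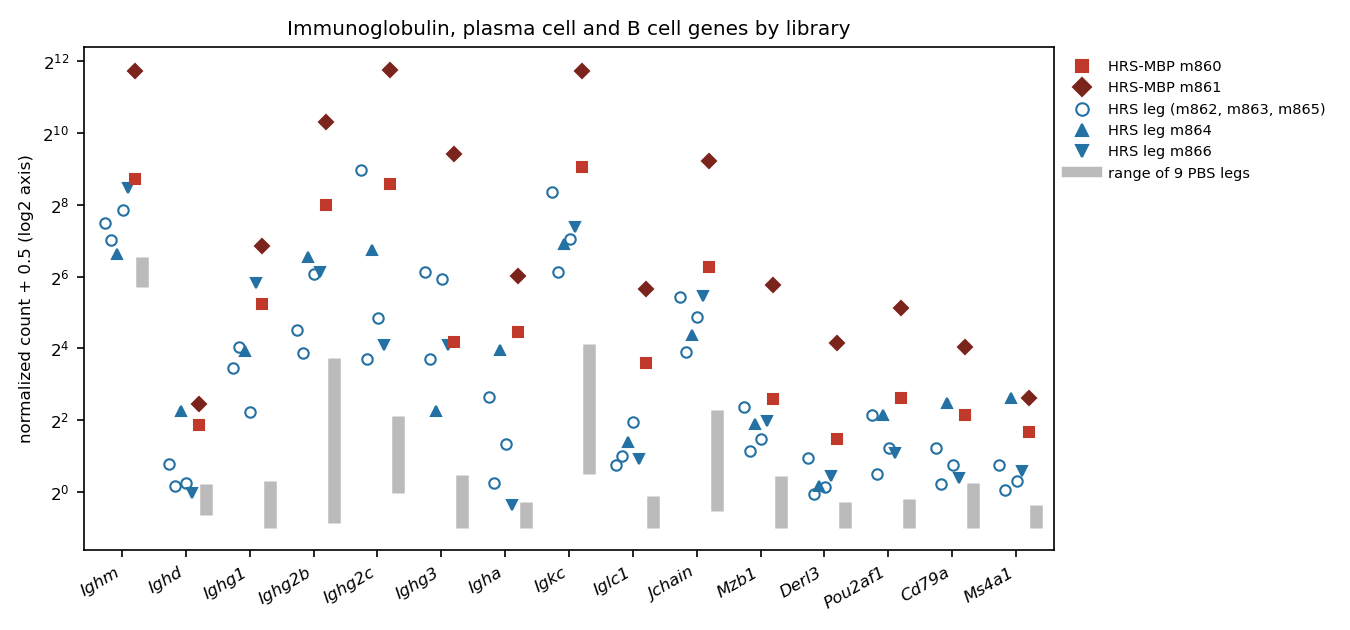
Normalized counts plus 0.5 (log2 axis) of antibody constant, plasma cell and B cell genes, 1 symbol per library, with grey bars for the range of the 9 PBS legs. In m861 *Igkc* (3434) and *Ighm* (3374) stand far above the HRS legs, *Ighg2b* separates both HRS-MBP libraries (253 and 1259) from the HRS legs, and *Ighg2c* does not.

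Of 170 V segments in the table, 85 passed the filter on low values, and 3 met the threshold in limma. Many of the 85, the called ones included, passed only through their HRS-MBP values, so that the 43 of them above all HRS legs (50.6%) and the 3 calls are a description and no support. Without a filter, 71 of 170 were above and 0 below all HRS legs (41.8%, beside 7.41% of all genes). With the filter set on the other 14 libraries, both counts being added after seeing the data, 29 segments passed, and 6 of these were above and 0 below (20.7%, beside 6.69%), and limma called 0. *Ighv14-3*, a heavy chain V segment at chr12:114059845-114060321 (GRCm38), was at 13.2 in m860 and 16 in m861, against 0.0294, 0.0756, 0.498, 0.356 and 0.0623 in the HRS legs and at most 0.0404 in PBS legs. The difference was 4.46 ± 0.294 (SE) on the log2 scale. *Igkv15-103*, a kappa V segment at chr6:68437440-68437925, was at 4.73 and 6.58, against 0 in m862 and 0.107 to 0.249 in the other 4 HRS legs, a log2 difference of 3.24 ± 0.219 (SE). *Ighv1-66*, at chr12:115593110-115593591, was at 5.74 and 13.8, against 0 in m862 and m865 and at most 0.0953 in the other 3, a log2 difference of 4.13 ± 0.301 (SE). Several HRS legs were at or below the floor of 3 reads (0.0324 to 0.0935 normalized counts), so that the log2 differences depend on the pseudocount, and V segments share sequence so closely that reads may be split among them.

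In the fit of all 16 libraries, 35 of the 76 calls were V segments, all higher in HRS-MBP, under the same limit of the filter. With the filter on the other 14 libraries, 3 of the 26 calls were V segments, all higher. The 3 calls above did not hold under every choice either. *Ighv14-3* and *Igkv15-103* lost the call without m861 (adjusted p = 0.121 for both), and without the HRS legs of m863 (0.0505 for both) or m865 (0.0587 and 0.0657). All 3 lost it with limma-voom, and these 2 segments also with the smaller pseudocount. *Ighv1-66* lost it without the HRS leg of m862 (0.0782), m863 (0.0609) or m865 (0.0658). The stricter filter and that on the other 14 libraries left all 3 untested, and over the other 19 alternatives adjusted p ran from 5.38e-09 to 0.152 for *Ighv14-3*, from 1.16e-07 to 0.308 for *Igkv15-103* and from 1.96e-07 to 0.144 for *Ighv1-66*.

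By family, 18 of 40 *Ighv* segments and 24 of 43 *Igkv* segments lay above all HRS legs, beside 7.10% of all genes. The filter bears on these counts in the same way. Of the segments that passed on the other 14 libraries, 1 of 12 *Ighv* (8.33%) and 4 of 16 *Igkv* (25%) lay above. The share of all genes was 6.69%, so that the *Ighv* share was near it. Summed over the 84 *Ighv* segments in the table, the level was 133 in m860 and 1077 in m861, against 137, 12.7, 46, 46 and 50.4 in the HRS legs, so that the sum in m860 lay within the HRS range. The *Igkv* sum was 201 and 1236 against 26.9 to 159, and the *Iglv* sum 13 and 71.2 against 1.31 to 6.41, both above every HRS leg. At least 3 reads were seen for 68 *Ighv* segments in m860 and 78 in m861, and for 35 to 49 in the HRS legs. Although m860 and the leg of m862 had nearly the same sum and m862 the greater depth, 42 segments were seen in m862. The leading segment took 9.93% of the *Ighv* sum in m860 (95% Wilson interval 9.24% to 10.7%, counting error only) and 20.3% in m861 (20.0% to 20.7%), but 45.3% in m862, 27.0% in m864 and 13.3% to 21.4% in the other 3 HRS legs. In m862, *Ighv1-76* and *Ighv14-2* together led, and the top 3 segments took 85.8% of the sum, against 24.0% in m860 and 34.2% in m861. For *Igkv*, the top 3 segments took 27.3% and 22.1% in m860 and m861 and 33.0% to 74.4% in the HRS legs. The HRS-MBP libraries therefore spread their V segment RNA over more segments than every HRS leg, in both families, by the share of the top 3 segments.

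**Figure D4:**
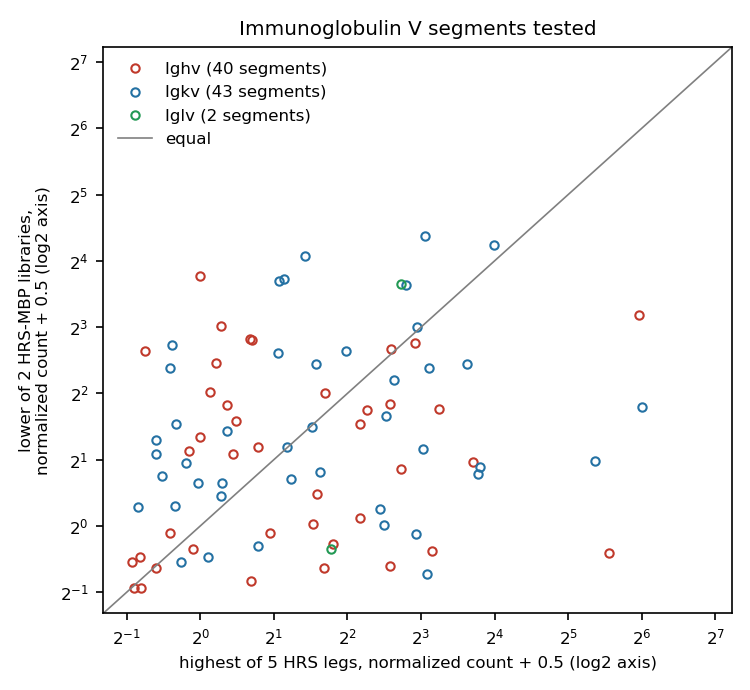
Each of the 85 V segments tested, by the highest of the 5 HRS legs (horizontal) and the lower of the HRS-MBP libraries (vertical), as normalized counts plus 0.5 on log2 axes. The 43 segments above the line of equality were higher in both HRS-MBP libraries than in every HRS leg.

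T cell and interferon genes were higher on average, but the leg of m864 reached the same levels. *Cd3e*, part of the T cell receptor complex, was at 11.1 and 14.1 against 5.21, 3.41, 12.5, 3.2 and 2.37. *Cd4* was at 35.2 and 53.5 against 20.1, 17.1, 40.5, 19.6 and 4.05. *Ifng*, the gene of interferon gamma, was at 2.44 and 3.79 against 1.36, 0.744, 5.3, 0.349 and 1.43. In each case m864 alone among the HRS legs exceeded at least 1 HRS-MBP library. Of 20 T cell genes tested, 0 were called and 0 were above all HRS legs, with a median log2 difference of 1.21. Without the leg of m864, 18 of the 20 were above the remaining HRS legs, beside 20.1% of all genes.

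Genes of resident memory T cells behaved likewise. *Cxcr6*, a chemokine receptor of such cells, was at 6.54 and 10.5 against 2.88, 2.87, 12.4, 2.47 and 1.53. *Cd69*, which holds T cells in tissue, was at 4.58 and 5.98 against 4.29, 2.21, 7.45, 1.87 and 1.68. *Itgae*, the gene of CD103, was low throughout, at 1.57 and 1.25 against 0.717 to 1.63. Of 10 such genes tested, 0 separated. Without the leg of m864, 9 were above the remaining HRS legs, beside 20.1% of all genes. The cytotoxic genes *Gzma* (12.4 and 12.1 against 2.85 to 15.3), *Nkg7* (17.5 in both against 4.58 to 22.8) and *Prf1* (9.65 and 10.5 against 2.92 to 12.3) also overlapped, and 0 of 13 in that list separated. Among 12 inhibitory checkpoint genes 0 separated, with *Pdcd1* (PD-1) at 3.34 and 3.22 against 0.534 to 3.55. *Il10*, which encodes an anti-inflammatory cytokine, was the 1 of 11 T helper and regulatory genes that did, at 2.93 and 2.58 against 0.904 to 2.36.

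Interferon gamma response and antigen presentation genes stood close to the level of m864. *Gbp2b*, a guanylate-binding protein gene, was at 105 and 126 against 25.7, 18.4, 88.1, 7.46 and 18.2, and it was the 1 of 27 response genes above all HRS legs (log2 difference 2.32 ± 0.786 SE; limma, adjusted p = 0.535). The chemokine *Cxcl9* was at 547 and 438 against 240, 101, 734, 80.2 and 204. All 27 differences were positive, with a median of 1.03, whereas the median of 18 type I interferon response genes was 0.26. *B2m*, the light chain of MHC class I, was at 1884 and 2194 against 785, 778, 1678, 662 and 503, and was the 1 of 14 class I genes to separate. For class II, *H2-Aa* was at 1410 and 1780 against 554, 540, 1699, 403 and 257, and 0 of 9 genes separated. Without the leg of m864, all 9 were above the remaining HRS legs, beside 20.1% of all genes.

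Of innate genes, 6 of 15 in the Toll-like receptor list, 4 of 19 complement and acute phase genes, 2 of 24 inflammatory macrophage and monocyte genes and 1 of 16 chemokines were above all HRS legs, beside 7.10% of all genes, and 0 were called. Without the leg of m864 these were 13, 14, 16 and 4, beside 20.1%. *Tlr2*, a sensor of bacterial lipoproteins, was at 83.4 and 87.6 against 35.3, 49.5, 80, 34 and 18.1. *Tlr8* was at 14.5 and 11.5 against 2.03 to 10.2 and *Tlr7*, a sensor of single-stranded RNA, at 21.2 and 20 against 3.61 to 19.4. Of 15 genes of Toll-like receptors and their partners, 6 were above all HRS legs (*Tlr2*, *Tlr4*, *Tlr6*, *Tlr7*, *Tlr8* and *Ly96*, the partner of TLR4), 0 were below and 0 were called. The margins were narrow, for *Tlr4* with 17.5 in both HRS-MBP libraries against 17.3 in m864. *C3*, the central complement component, was at 2132 and 2964 against 813, 874, 2014, 513 and 699. Of 19 complement and acute phase genes, 4 were above all HRS legs (*C1qc*, *C3*, *C4b* and *C5ar1*) and 0 below. *Cd68*, a macrophage lysosomal gene, was at 162 and 195 against 65.3, 112, 123, 123 and 19.8, and the Fc receptor genes *Fcgr3* and *Fcer1g*, whose products bind antibody or signal for it, also separated, by log2 differences of 1.22 and 1.07. Of 6 Fc receptor genes tested, 2 were above all HRS legs and 0 were called, and the smallest difference was 0.02. *Nos2*, the inducible nitric oxide synthase, was at 43.8 and 128 against 11.1, 8.95, 70.4, 5.38 and 9.44, with overlap. *Ccl11* (eotaxin) was at 27.4 and 37.5 against 12.1 to 23.5, the 1 of 16 chemokines to separate.

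Neutrophil, matrix and regeneration genes differed between the HRS-MBP libraries themselves. The neutrophil list score (the mean of log2 values over its 13 tested genes) was 2.24 in m860 and 1.36 in m861, within an HRS range of 0.34 to 3.48. *Col1a1*, the main fibrillar collagen gene, was at 4513 and 1608 against 4569, 6393, 8587, 8779 and 506, and *Postn*, a matrix gene of activated fibroblasts, at 907 and 123 against 980, 1678, 1263, 2604 and 40.9. Low values in m866 made the groups overlap. Without the leg of m866, 12 of 23 fibroblast and matrix genes lay below all HRS legs, beside 15.0% of all genes. The embryonic myosin gene *Myh3*, expressed by regenerating fibres, was at 204 and 38.9 against 366, 350, 132, 557 and 3.94. The median of 20 regeneration and satellite cell genes was 0.05 in m860 and -1.01 in m861 relative to the mean of the HRS legs.

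**Figure D5:**
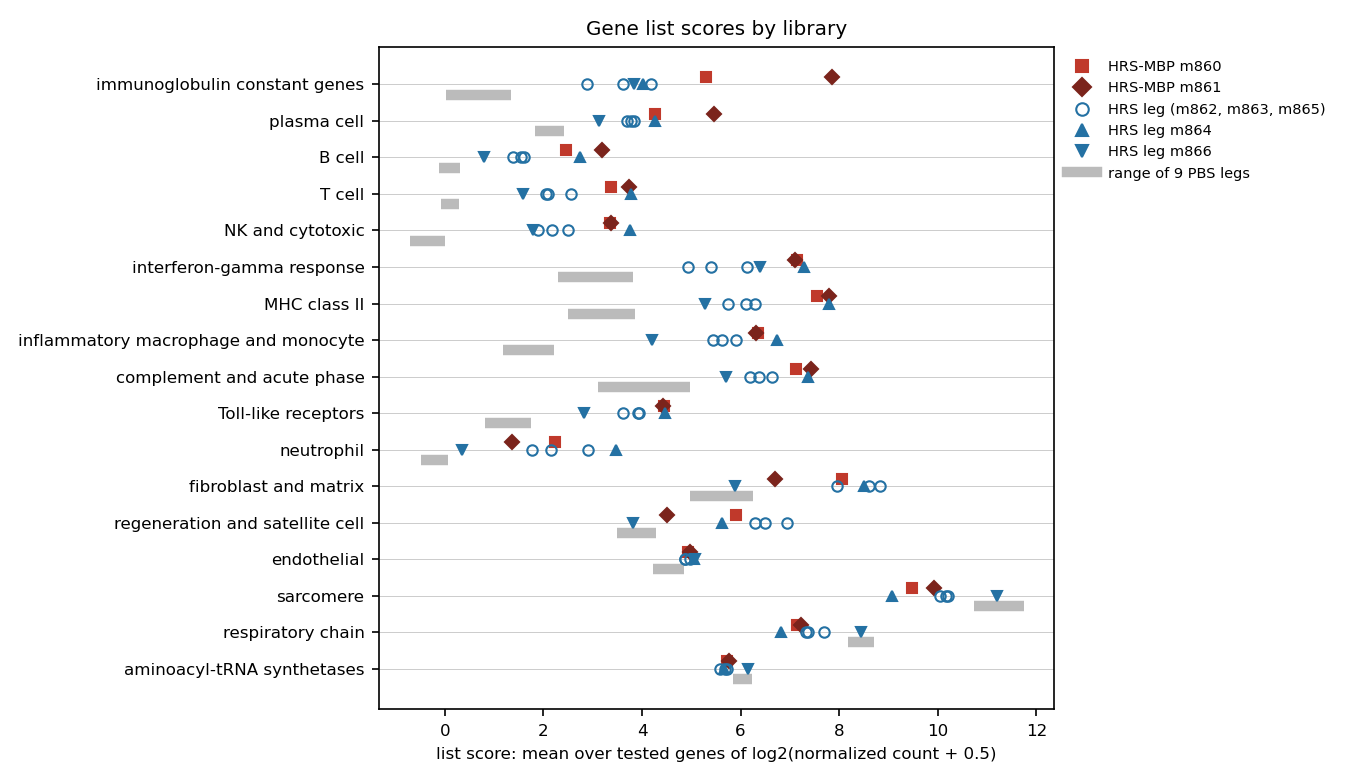
Scores of 17 gene lists, each the mean of log2(normalized count + 0.5) over the tested genes of the list, 1 symbol per library, with grey bars for the range of the 9 PBS legs. The HRS-MBP libraries exceed all HRS legs for antibody constant genes (5.29 and 7.85), lie next to the leg of m864 for T cell and MHC class II genes, and differ from each other for neutrophil, matrix and regeneration genes.

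Of the genes below all HRS legs, 0 were called. They included 2 of 17 endothelial genes, 1 of 12 nerve and Schwann cell genes and 2 of 20 regeneration genes, shares near the 8.40% of all genes. *Kdr*, the VEGF receptor of endothelium, was at 27.5 and 21.5 against 44.2, 42.5, 34.9, 38.9 and 41.6. *Cldn5*, an endothelial tight junction gene, was at 12.5 and 9.27 against 24.6, 33.7, 20.1, 29.7 and 21.4, a log2 difference of -1.20 ± 0.236 (SE; limma, adjusted p = 0.358). *Pecam1*, also endothelial, was at 111 and 118 within an HRS range of 99 to 120, and of 17 endothelial genes only *Kdr* and *Tie1* were below all HRS legs (*Cldn5*, like *Foxd3*, was named by its p and not from a list). *Sox10*, the Schwann cell transcription factor, was at 1.18 in both libraries against 2.84, 1.67, 3.09, 3.65 and 4.52, and *Foxd3*, a neural crest factor, at 1.14 and 0.623 against 2.14 to 2.8. *Cdh15* (M-cadherin) and *Pax7*, genes of satellite cells, were the 2 of 20 regeneration genes that separated, at 14.3 and 11.5 against 15 to 31.3 and at 3.32 and 3.07 against 3.48 to 6.64.

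Further genes were below all HRS legs. *Myh6*, the alpha cardiac myosin heavy chain gene, was at 0.281 and 3.08 against 25.5, 9.43, 13.9, 12.1 and 13.9, with PBS legs at 16.9 to 190 (log2 difference -3.13). *Slc40a1*, the iron exporter ferroportin, was at 16.8 and 9.9 against 26.6, 28.8, 26.8, 39.2 and 64. It was the 1 of 13 heme and iron genes below all HRS legs, while 2 were above. In that list 9 differences were positive, with a median of 0.36. *Vwa1*, a basement membrane gene, was at 17.3 and 12.5 against 25.3 to 29.5, *S100a16* at 33.8 and 24.1 against 46.3 to 60.9, and the mitochondrial tRNA gene *mt-Ts1* at 0.0611 and 0.089 against 0.947 to 3.43. For *mt-Ts1*, the values of m860 and m861 are at or near 3 reads. *Tagln* (smooth muscle), *Ear2* (eosinophil) and *Cd209a* (dendritic cell) were each below all HRS legs, by -0.83, -1.01 and -0.78 on the log2 scale. Of 14 dendritic cell genes tested, 2 were below and 1 above all HRS legs, and 9 differences were positive, with a median of 0.2. In the lists of *Tagln* and *Ear2*, 1 of 23 and 1 of 7 were below and 0 above. Of all genes, 8.40% were below and 7.10% above. Among genes with higher levels in both HRS-MBP libraries, *Rsc1a1* was at 1.27 and 1.31 against 0.0045 to 0.185 but within its PBS range of 0.147 to 1.84. *Sult5a1* was at 6.48 and 8.16 against 2.68 to 3.56, and *Hepacam2*, which passed the filter only through HRS-MBP, at 1.36 and 3.25 against 0.338 to 0.654.

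The remaining lists held 0 called genes and few that separated. Among 18 endoplasmic reticulum stress genes 2 were above all HRS legs, led by *Sel1l*, a part of the machinery that retrieves misfolded proteins, at 79.8 and 105 against 69.5 to 76. *Oas2*, which makes an antiviral second messenger, was the 1 of 18 type I interferon response genes to separate, at 32.3 and 32 against 16.6 to 31. *Cbr2*, a carbonyl reductase used as a resident macrophage marker, was the 1 of 16 in its list, at 33.1 and 30 against 21 to 29.9. The margins were narrow for all 3 genes. In the list of *Cbr2*, only 6 of the 16 differences were positive, with a median of -0.23. *Ddit4*, a stress-induced inhibitor of mTORC1, was at 20.8 and 23.4 against 11.6 to 16.3. It was the 1 of 15 atrophy and growth genes above all HRS legs, while 1 was below. In that list 4 differences were positive, with a median of -0.24. *Acaca*, the enzyme of the first step of fatty acid synthesis, was the 1 of 16 adipocyte genes below all HRS legs, at 15.3 and 16.4 against 17.4 to 31.5. Of 23 cell cycle genes and 16 immediate early genes 0 separated, with median log2 differences of 0.41 and 0.11.

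Of 29 listed sarcomere genes 0 lay outside the range of the HRS legs (*Myh6* is not in that list), with a median log2 difference of -0.36, and the same held for 26 respiratory chain genes with a median of -0.35. Without the leg of m864, 15 of 29 and 19 of 26 were below the remaining HRS legs, beside 18.0% of all genes. Without that of m866, the medians were -0.09 and -0.12. *Hars*, the gene of the antigen itself, was at 31 and 36.2 against 36.7, 34, 35.2, 32.7 and 33.5. The difference was -0.04 ± 0.122 (SE) on the log2 scale, with overlap, and its sign turned with TMM scaling (0.01), with totals made equal without mitochondrial genes (0.03) and with limma-voom (0.03). Of 20 aminoacyl-tRNA synthetase genes 0 separated, and their median was -0.05. Of 1319 pseudogenes, whose reads may belong to their parent genes, 20.9% lay above and 9.70% below all HRS legs, beside 5.39% and 8.19% of 13625 protein-coding genes. None of the 1319 was called here, and 16 (10 higher, 6 lower) were in the fit of all 16 libraries, beside 0.463% of all genes. The part of read assignment in this was not tested.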

How the data were processed

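Poly(A) RNA of mouse muscle was sequenced from directional libraries on 3 Illumina platforms, with none named for any 1 library. The authors deposited normalized counts, treated as a signal that is never negative. The submitters' processing notes name STAR 2.7.8a, limma and the builds mm39 and GRCm39, whereas 25495 of 25652 genes matched by symbol and chromosome had the start given by GENCODE M21 (GRCm38), from which coordinates were taken. How the values were scaled and whether counting used strand is not given in the sources used here. Reads were not taken as recovered, since only 73.9% to 76.0% of the low values (up to 20 steps) fell within 0.02 of a whole number of steps, a step being the worth of 1 read. Intervals and the floor of 3 reads rest on implied reads and cover counting error only.

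The 16414 of 26382 genes whose mean over the 16 libraries reached 0.5 were tested in limma 3.58.1 (R 4.3.3, eBayes moderation with trend). The fit used log2 values after adding 0.5 and held only the 2 HRS-MBP and 5 HRS libraries, and Benjamini-Hochberg adjustment over all genes tested. Log2 differences are on that scale and understate differences of low genes. Genes were called at an adjusted p of 0.05 and a log2 difference over 1. Separation means that both HRS-MBP libraries lie above, or below, all 5 HRS legs. The members, 37 gene lists and the named genes' rule were chosen with earlier results of these data known, and lists are described without set tests. The rule named the 8 genes per direction with the largest called differences, filled with the smallest p among separated genes and leaving out V segments and unnamed loci, the leading separated member of each list, *Ifng*, *Cd69*, *Cxcr6*, *Prdm1*, *Itgae*, *Hars*, *Ptprc*, *Ckm* and *Acta1*. *Dbp* and clock genes beyond the rule were singled out after their values were seen. Alternatives covered the pseudocount, filter, scaling (among them TMM, the trimmed mean of M values), variance model, libraries in the fit and each library left out. The test was tried on simulated data first. Some list members are not reported here by name. Mouse single-cell and human data were not analysed here, and 0 columns of per-sample values were left unused.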

Additional observations from a re-analysis of the deposited data

Results flagged for a closer look

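Of 89 values checked in the 5 HRS legs, 11 held a leg far from the other 4 by the gap to its nearest neighbour relative to the range. The cutoff passes about 1 in 20 only where values are normal and independent. Single genes were checked as normalized counts without logarithms, and many flags fall in 1 leg. No excess over chance can therefore be read from the 11 flags. In m864 these were *Gbp2b* at 88.1 (others at most 25.7), *B2m* at 1678 (at most 785), *C3* at 2014 (at most 874), *Ifng* at 5.3 (at most 1.43), *Cxcr6* at 12.4 (at most 2.88), *Ptprc* at 279 (at most 115) and the germinal centre and lymphoid structure score at 3.87 (at most 2.9). The others were *Myh6* at 25.5 in m862 (at most 13.9), *Ear2* at 2.69 in m865 (at most 1.54), the resident and alternatively activated macrophage score at 3.8 in m863 (at most 3.31) and the synthetase score at 6.15 in m866 (at most 5.73).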

How the results depend on the processing

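The count of 4 called genes, all higher, moved with most choices. It was 1 with the smaller pseudocount, 7 (6 higher, 1 lower) with a pseudocount of 2, 19 (18 higher, 1 lower) without a filter, 0 with a mean of at least 2 and 0 with limma-voom. It was also 0 with the filter on the libraries other than HRS-MBP, added later, and 26 (18 higher, 8 lower) with that filter and all 16 libraries. With all 16 libraries in the fit and the filter as reported it was 76 (65 higher, 11 lower), with a weight per group 183 (150 higher, 33 lower), and with mouse as a replicate block 66 (56 higher, 10 lower). HRS-MBP and HRS mice share no animal, so the block can act only through the PBS legs. Leaving out 1 library in turn gave 0 to 39 calls (0 to 39 higher, 0 to 2 lower), with 39 without m860, 1 without m861, 2 without m862, 0 without m863, 5 without m864, 0 without m865 and 14 without m866. Without m860 or m861, the lone HRS-MBP library is assumed to vary like the HRS legs. With 1 HRS leg left out in turn, separated genes numbered 1240 to 3301 higher and 1481 to 2959 lower. Without m864 and m866 together, a choice made after seeing the data, 670 were called (519 higher, 151 lower) and 4120 and 4314 separated. With protein-coding genes only, also added later, 734 were separated higher. Scaling by TMM (4 calls), quantiles (6) or totals without mitochondrial genes (6) and leaving out the mean trend (4) gave similar counts. The median difference of all genes stayed between -0.057 and 0.035. Of single genes, *Hars* (-0.04) alone reversed, at 0.01 with TMM, 0.03 with totals without mitochondrial genes, 0.03 with limma-voom and, with 1 library left out in turn, between -0.15 and 0.07 (0.07 without m860). The cause of these shifts was not tested. Depth limits genes near 3 reads, such as *mt-Ts1* and the V segments in HRS legs.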
